A study of Mus musculus with 12 samples.

Results

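The genes described here encode the kinases that regulate transcription by RNA polymerase II, their cyclins and an inhibitor of one of them: Cdk12, Cdk13, Ccnk, Cdk9, Ccnt1, Ccnt2, Cdk7, Ccnh, Mnat1 and Hexim1. They were picked by gene symbol and no measured value entered the rule, but the list was set with earlier results of these data known. All 10 were found among the 40077 genes of the table for cultured cells and the 34508 genes of the table for tumors. Myc-CaP is a mouse prostate cancer cell line. RNA sequencing was done on Myc-CaP cells in culture and on Myc-CaP tumors grown under the skin of male FVB mice, 12 libraries in all. Cells received DMSO, the solvent, or YJ1206 at 1 µM for 24 hours, with 3 libraries each. Mice received either vehicle or 100 mg/kg of YJ1206, given orally on 3 occasions per week, again with 3 libraries each. YJ1206 is a PROTAC, a small molecule that brings its target proteins to the ubiquitin machinery for destruction, and its targets are the CDK12 and CDK13 proteins. Since it acts on proteins, the Cdk12 and Cdk13 transcripts do not check the labels. The labels name polyA RNA for cells and total RNA for tumors, while the stated protocol for both removed ribosomal RNA. The library names of the DMSO and the YJ1206 cells come from separate number series, so treatment and library series cannot be told apart. The labels do not say that libraries came from separate cultures or animals, and all p-values measure the spread between these libraries.

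CDK12 and CDK13 each pair with cyclin K and phosphorylate the C-terminal domain of the large RNA polymerase II subunit during elongation. CDK9 pairs with cyclin T1 or T2 to form P-TEFb, which releases polymerase from promoter-proximal pausing, and HEXIM1 holds P-TEFb inactive together with the 7SK RNA. CDK7, cyclin H and MAT1 (the product of Mnat1) form the CDK-activating kinase, which is part of the general factor TFIIH and also activates other CDKs. CDK12 loss is a recurrent event in prostate cancer.

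In the GENCODE M21 annotation of the GRCm38 build, Cdk12 lies at chr11:98203059-98278504 on the plus strand and Cdk13 at chr13:17710315-17805097 on the minus strand. Ccnk lies at chr12:108179579-108203359 (plus), Cdk9 at chr2:32705784-32713076 (minus), Ccnt1 at chr15:98538689-98570923 (minus) and Ccnt2 at chr1:127774164-127808061 (plus). Cdk7 lies at chr13:100702631-100730939 (minus), Ccnh at chr13:85189408-85223469 (plus) and Mnat1 at chr12:73123717-73273988 (plus). Hexim1, at chr11:103116231-103119725 (plus), is a gene of 1 exon and 1 annotated transcript of 3495 bases. Its relative Hexim2 starts 12703 bases downstream on the same strand, with 0 annotated genes between them. The other members have 3 to 9 annotated transcripts each.

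Promoter sequences are shown for the 3 genes that bracket the response of the cells: Hexim1 and Mnat1, the members with the largest increases, and Cdk7, the member that fell. They come from RefSeq (GRCm38.p6), which had an entry for 9 of the 10 genes, and are cut so that no base lies within the transcribed gene. They are the 156 bases upstream of Hexim1 (chr11:103116075-103116230, plus strand), the 250 bases upstream of Mnat1 (chr12:73123467-73123716, plus strand) and the 250 bases upstream of the RefSeq start of Cdk7 (chr13:100730943-100731192, minus strand). Capitals mark matches, on either strand, to any of 6 motifs. The TATA box core was searched as TATAA and the CCAAT box by the letters of its name. The GC box was searched as GGGCGG and the canonical E-box as CACGTG. The core motif of ETS factors was searched as CCGGAAG and that of the factor NRF1 as CGCATGCG.
Hexim1: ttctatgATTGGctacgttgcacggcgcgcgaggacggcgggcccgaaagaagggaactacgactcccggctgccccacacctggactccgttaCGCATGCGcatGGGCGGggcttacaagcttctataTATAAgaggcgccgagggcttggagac
Mnat1: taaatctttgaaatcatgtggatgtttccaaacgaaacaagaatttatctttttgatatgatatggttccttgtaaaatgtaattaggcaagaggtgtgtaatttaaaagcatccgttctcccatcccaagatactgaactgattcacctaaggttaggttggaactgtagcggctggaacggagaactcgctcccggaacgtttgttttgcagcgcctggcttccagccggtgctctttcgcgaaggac
Cdk7: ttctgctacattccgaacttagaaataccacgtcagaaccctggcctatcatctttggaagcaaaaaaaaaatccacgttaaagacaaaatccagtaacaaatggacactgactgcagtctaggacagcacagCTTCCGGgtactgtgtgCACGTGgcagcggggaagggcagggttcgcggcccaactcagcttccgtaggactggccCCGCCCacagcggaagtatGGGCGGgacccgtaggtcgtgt
The Hexim1 window held a CCAAT box, an NRF1 core, a GC box and, 27 bases from its end, a TATA box core. This window ends before the RefSeq start of Hexim1 at chr11:103116325, because the GENCODE gene already starts at 103116231. Of 32851 RefSeq promoters searched over the same 156 bases, 15.2% held the TATA box core, 20.9% the CCAAT box, 17.5% the GC box and 0.548% the NRF1 core. With all 250 bases searched, these shares were 22.8%, 33.8%, 32.7% and 1.55%. The NRF1 core was added to the search after the Hexim1 sequence had been seen. The Cdk7 window held an ETS core, an E-box and 2 GC boxes. Over 250 bases, 6.91% of promoters held the ETS core, 6.02% the E-box and 32.7% the GC box. The Mnat1 window held none of the 6 motifs, and its GC content was 43.2%, against 60.9% for Hexim1 and 53.6% for Cdk7. None of the matches in these 3 windows overlapped another.

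Total counts per library ranged from 13936984 to 18520071 in cells, where each YJ1206 library was shallower than each DMSO library, and from 15391684 to 26928447 in tumors. Counts were scaled by TMM and expressed relative to library size as CPM for tests, and TPM, which also allows for transcript length, were used wherever genes were compared with each other. The biological coefficient of variation was 0.0322 in cells and 0.139 in tumors. Among the tumor libraries, the third of each group lay between the other two for 96.9% (vehicle) and 96.5% (YJ1206) of the genes that differed by over 0.5 log2 between those others. Whether the third libraries are independent of the others was not tested, and if they are not, n is below 3 and the tumor p-values are too small. The epithelial marker Epcam was at 0 in all 6 cell libraries, and the summed TPM of 5 epithelial markers rose from between 3.96 and 4.54 to between 26.4 and 27.7 with YJ1206, mostly through Krt8. Pan-leukocyte and endothelial markers were at or near 0 in the cells, and the sum of 4 macrophage markers went from between 1.15 and 2.41 to between 4.51 and 7.52 TPM with Adgre1 and C1qa at 0.

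In DMSO-treated cells the genes lay within a narrow range of TPM. Cdk9 was the highest, at 66.9 ± 3.50 TPM (SD, n = 3), and its libraries lay above those of Ccnk and Cdk7, which overlapped at 53.7 ± 0.934 and 53.3 ± 1.96 TPM. Cdk12 followed at 36.7 ± 1.06 TPM and stood above Cdk13 by a gap smaller than either spread, 34.7 ± 1.36 TPM, while Cdk13 and Ccnh overlapped. Mnat1, Hexim1 and Ccnt1 overlapped between 27.6 and 30.0 TPM, and Ccnt2 was the lowest at 19.8 ± 1.05 TPM. With YJ1206, Hexim1 became the highest of the 10 at 129 ± 3.70 TPM, above Cdk9 at 82.7 ± 2.38 TPM, and Ccnt2 remained the lowest at 16.4 ± 0.0793 TPM. In vehicle tumors the order differed at its lower end, with Hexim1 last at 24.6 ± 3.47 TPM, and Ccnt1, at 51.5 ± 7.50 TPM, overlapped Cdk9 at 59.2 ± 3.38 TPM. In tumors under YJ1206, Cdk9, Cdk12, Cdk7 and Ccnt1 each overlapped their next neighbour, down to Cdk13 at 39.0 to 40.9 TPM, which lay above Ccnk at 31.8 to 34.0 TPM. The plot of TPM by library shows these levels.

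**Figure D1:**
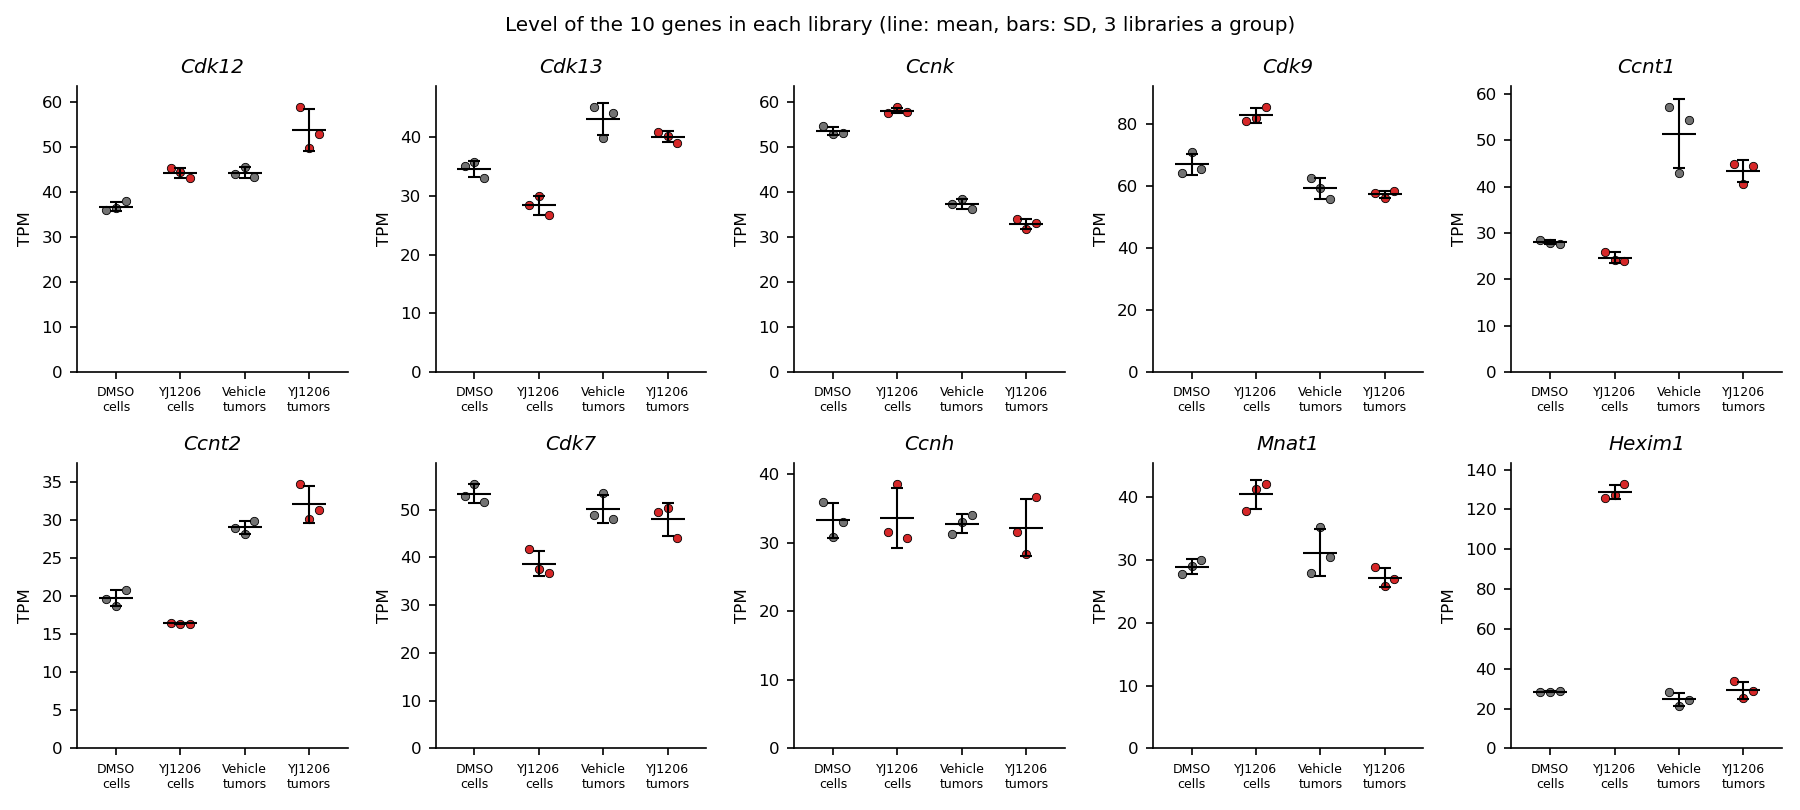
TPM of each of the 10 genes (vertical axis, one panel a gene) in every library of the 4 groups, with a line at the mean and bars of 1 SD over 3 libraries. Hexim1 stands out, at 126 to 133 TPM in the 3 YJ1206 cell libraries and between 21.2 and 33.7 TPM in all others.

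The first comparison asked how the transcripts of the kinases, cyclins and inhibitor respond when cells are exposed to the degrader. Hexim1 rose 5.59-fold, and Mnat1, Cdk9, Cdk12, Ccnk and Ccnh rose by smaller amounts, while Cdk7 fell. In edgeR's quasi-likelihood test, 7 of the 10 genes passed an adjusted p of 0.05, 6 of them higher and 1 lower, and the CPM of 7 did not overlap between groups. Of all 11826 genes tested, 37.8% were called higher and 38.3% lower, and the CPM of 77.5% did not overlap, so the count of 7 calls alone does not set the members apart. Their median log2 fold change was 0.36, against -0.017 over all genes. How the libraries were scaled moved that all-gene median to -0.20 with total counts, to -0.24 with log2(TPM + 1) and to -0.30 with log2(TPM + 0.1). Among all calls the share of higher genes was 49.7% after TMM scaling, 36.1% when scaled by total counts and 29.2% on the log2(TPM + 1) scale. The 6 members called higher and Cdk7 kept their direction under every setting tried in cells.

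Among the P-TEFb genes, the inhibitor showed the largest change. Hexim1 was at 56.0, 56.6 and 57.1 CPM in the DMSO libraries and at 307, 312 and 330 CPM in the YJ1206 libraries. The groups were far apart, each tight within itself. The log2 fold change was 2.48 (SE 0.038, 95% confidence interval 2.41 to 2.56, edgeR adjusted p = 2.30e-27), and 117 of the 11826 genes, 0.989%, rose more. Over the 14 alternative settings it ranged from 2.14 to 2.51.

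Cdk9, the kinase that HEXIM1 holds in check, was at 57.6, 62.7 and 56.3 CPM with DMSO and at 87.3, 88.5 and 92.2 CPM with YJ1206. All treated libraries lay above all controls, and the log2 fold change was 0.60 (SE 0.047, 95% interval 0.50 to 0.70, edgeR adjusted p = 4.89e-12), which came to 0.41 with total counts and 0.30 with log2(TPM + 1), both called. The genes of its cyclin partners did not follow. Ccnt1 was at 114, 109 and 110 CPM with DMSO and at 111, 103 and 106 CPM with YJ1206, with overlapping groups and a log2 fold change of -0.058 (95% interval -0.14 to 0.024, edgeR adjusted p = 0.191). Ccnt2 was at 62.5, 59.4 and 63.4 CPM against 58.6, 58.3 and 62.2 CPM, again overlapping, with a log2 fold change of -0.050 (95% interval -0.15 to 0.050, edgeR adjusted p = 0.355). Both were called lower under the 3 settings that lower the all-gene median: Ccnt1 at -0.24 with total counts and -0.18 with either TPM scale, Ccnt2 at -0.24, -0.25 and -0.26. Set against the all-gene median of each setting, Ccnt1 lay between -0.060 and 0.12 and Ccnt2 between -0.066 and 0.035.

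The transcripts of the degraded kinases behaved differently from each other. Cdk12 was at 119, 121 and 125 CPM with DMSO and at 185, 182 and 180 CPM with YJ1206. The groups did not overlap, and the log2 fold change was 0.58 (SE 0.035, 95% interval 0.51 to 0.66, edgeR adjusted p = 2.26e-14). Cdk13 was at 93.0, 92.3 and 87.7 CPM against 92.0, 93.7 and 92.3 CPM. These libraries overlapped, with a log2 fold change of 0.027 (SE 0.040, 95% interval -0.055 to 0.11, edgeR adjusted p = 0.550). Its direction turned with the scaling, to -0.16 (edgeR adjusted p = 0.000612) with total counts and to -0.28 (limma adjusted p = 0.00322) with log2(TPM + 1), and relative to the all-gene median it stayed between -0.035 and 0.067. Ccnk, the cyclin that both kinases need, was at 84.7, 82.6 and 81.9 CPM with DMSO and at 110, 112 and 111 CPM with YJ1206, all higher, with a log2 fold change of 0.42 (SE 0.038, 95% interval 0.34 to 0.50, edgeR adjusted p = 1.15e-10). Under the other scalings these rises were smaller: Cdk12 was at 0.40 with total counts and 0.26 with log2(TPM + 1), and Ccnk at 0.23 and 0.12, all still called.

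The subunits of the CDK-activating kinase diverged. Cdk7, its catalytic subunit, was at 45.6, 45.9 and 43.4 CPM with DMSO and at 42.2, 38.2 and 37.9 CPM with YJ1206. It was the only member called lower, by a small margin between the groups, with a log2 fold change of -0.19 (SE 0.058, 95% interval -0.31 to -0.067, edgeR adjusted p = 0.00546). The fall was larger under the other scalings, at -0.37 with total counts and -0.45 with log2(TPM + 1). Mnat1, the assembly subunit, was at 38.6, 40.5 and 41.3 CPM against 64.6, 70.7 and 72.9 CPM. Its groups were well separated, and the log2 fold change of 0.79 (SE 0.054, 95% interval 0.68 to 0.90, edgeR adjusted p = 3.41e-13) was second to that of Hexim1, and it came to 0.60 with total counts and 0.47 with log2(TPM + 1). Ccnh, the cyclin of this kinase, was at 29.0, 24.0 and 27.5 CPM against 32.8, 34.6 and 32.2 CPM, all higher, with a log2 fold change of 0.31 (SE 0.073, 95% interval 0.16 to 0.46, edgeR adjusted p = 0.000436). The Ccnh call was lost with total counts (0.12, edgeR adjusted p = 0.131) and on both TPM scales (0.0092 and 0.0093, limma adjusted p = 0.937 and 0.939).

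**Figure D2:**
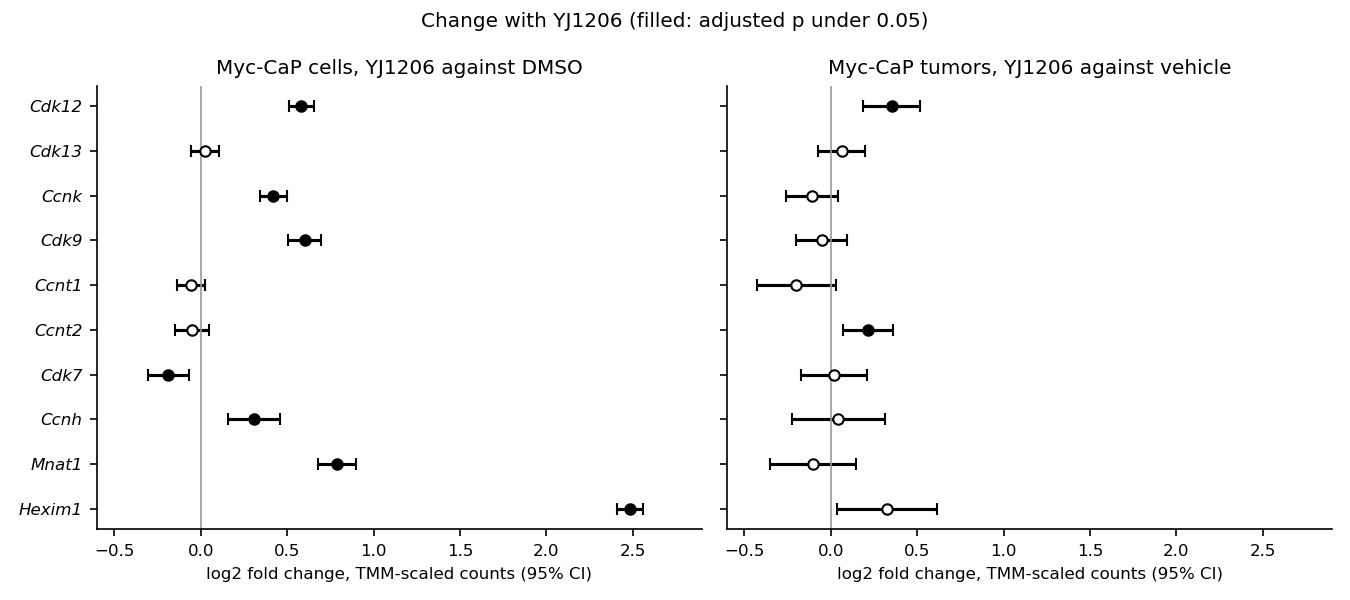
Log2 fold change with YJ1206 of each gene (points, bars: 95% confidence interval, edgeR on TMM-scaled counts) in cells on the left and tumors on the right, filled where the adjusted p was under 0.05. In cells 7 points are filled and Hexim1 lies at 2.48, while in tumors Cdk12 (0.35) and Ccnt2 (0.22) are filled and Hexim1 lies at 0.33.

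The second comparison put the same question to tumors, where each library mixes cancer cells with cells of the host, so that fewer cells of a type and less RNA per cell cannot be told apart. Cdk12 and Ccnt2 rose, and the other 8 genes did not pass the test. Of all 15558 genes tested, 11.9% were called higher and 14.9% lower, and the CPM of 44.6% did not overlap between groups, against 3 of the 10 members. The median log2 fold change of the members was 0.031, against 0.0091 over all genes. Marker sums also moved. Epithelial markers went from between 95.9 and 107 to between 149 and 161 TPM, and pan-leukocyte markers from between 119 and 336 to between 382 and 412 TPM. The differences in these sums came mostly from single genes, Cldn4 (28.3 to 34.8 against 68.1 to 86.4 TPM) and Cd52 (79.5 to 300.5 against 349 to 367 TPM), while Krt8, Ptprc and Laptm5 overlapped. The pan-leukocyte marker Coro1a was also higher without overlap, at 8.53 to 8.67 against 9.40 to 13.3 TPM. Skeletal muscle markers were at 575, 20.3 and 334 TPM in vehicle libraries 1, 2 and 3 and between 5.84 and 9.62 TPM with YJ1206, and fibroblast markers at 476, 176 and 354 TPM in vehicle and between 135 and 292 TPM with YJ1206. Neutrophil markers went from between 19.9 and 27.0 to between 10.7 and 16.4 TPM, endothelial markers from between 39.3 and 40.1 to between 40.8 and 47.7 TPM, and macrophage and T cell sums overlapped. Within those overlapping sums, Adgre1 (6.37 to 8.45 against 12.2 to 13.8 TPM), C1qa (55.6 to 65.6 against 66.2 to 101 TPM) and Cd8a (1.90 to 2.74 against 3.36 to 3.88 TPM) were higher without overlap. No macrophage or T cell marker was lower without overlap. Most of the T cell sum was Cd3d, which the DMSO cells in culture also held, at 3.44 to 5.71 TPM. The part of these markers in the members' changes was not tested.

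Cdk12 was at 147, 157 and 144 CPM in vehicle tumors and at 206, 179 and 186 CPM in YJ1206 tumors. All treated libraries lay above all controls, as in the cells. The log2 fold change was 0.35 (SE 0.070, 95% interval 0.19 to 0.52, edgeR adjusted p = 0.0108), and without vehicle library 1, the one highest in muscle markers, it was 0.34 (edgeR adjusted p = 0.0265). The call was lost without vehicle library 3 (edgeR adjusted p = 0.0635) and with libraries 1 and 2 of each group only (edgeR adjusted p = 0.219). Cdk13 was at 125, 117 and 125 CPM against 134, 123 and 127 CPM, overlapping, with a log2 fold change of 0.063 (95% interval -0.073 to 0.20, edgeR adjusted p = 0.465) that turned to -0.099 with log2(TPM + 1). Ccnk was at 59.6, 64.1 and 58.4 CPM against 57.3, 55.0 and 56.7 CPM. Its treated libraries were all slightly lower, yet the log2 fold change of -0.11 did not pass the test (95% interval -0.26 to 0.040, edgeR adjusted p = 0.246).

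Hexim1, the member that moved most in cells, was at 58.0, 45.6 and 50.5 CPM in vehicle tumors and at 73.3, 56.3 and 63.6 CPM in YJ1206 tumors. The groups overlapped, because the lowest treated library lay below the highest control. The log2 fold change was 0.33 (SE 0.124, 95% interval 0.035 to 0.61, edgeR adjusted p = 0.0938), and it passed the test without vehicle library 1 (0.42, edgeR adjusted p = 0.0452). Cdk9 was at 52.4, 52.1 and 49.9 CPM against 51.8, 48.4 and 48.8 CPM, with overlapping groups and a log2 fold change of -0.052 (95% interval -0.20 to 0.096, edgeR adjusted p = 0.589). Ccnt1 spread widely among vehicle tumors, at 178, 137 and 168 CPM, and less among treated ones, at 145, 136 and 140 CPM. Its log2 fold change was -0.20 (95% interval -0.43 to 0.028, edgeR adjusted p = 0.171), and without vehicle library 2 it was called lower (-0.30, edgeR adjusted p = 0.00496). Ccnt2, the other cyclin T gene, was at 96.1, 94.8 and 99.8 CPM against 120, 107 and 111 CPM, all higher. Its log2 fold change of 0.22 (SE 0.062, 95% interval 0.071 to 0.36, edgeR adjusted p = 0.0392) was close to the threshold, and it was called in 4 of 14 alternative settings, with adjusted p from 0.0398 to 0.300 over them. Leaving out any tumor library other than vehicle library 2 ended the call, with log2 fold changes of 0.17 to 0.25 and edgeR adjusted p of 0.0558 to 0.127.

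The genes of the CDK-activating kinase showed no called change in tumors. Cdk7 was at 42.5, 47.3 and 41.4 CPM in vehicle tumors and at 45.3, 46.0 and 41.6 CPM with YJ1206 (log2 fold change 0.018, 95% interval -0.17 to 0.21, edgeR adjusted p = 0.893). Ccnh was at 24.0, 27.5 and 24.4 CPM against 24.3, 24.1 and 30.0 CPM (0.044, 95% interval -0.22 to 0.31, edgeR adjusted p = 0.813). Mnat1 was at 44.0, 57.6 and 47.9 CPM against 48.4, 44.6 and 46.1 CPM (-0.10, 95% interval -0.35 to 0.14, edgeR adjusted p = 0.511). All of these groups overlapped. The interval of Ccnh includes its change in cells, 0.31, whereas that of Mnat1 excludes its change there, 0.79.

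Whether the effect of YJ1206 differed between tumors and cells was tested with an interaction term over all 12 libraries. That fit shared 1 spread per gene between both materials, although the biological coefficient of variation was 0.0322 in cells and 0.139 in tumors. The effect differed for 6 of the 10 genes, where 46.8% of the 15328 genes tested differed. Hexim1 (tumors minus cells, -2.19 log2, edgeR adjusted p = 4.52e-08), Mnat1 (-0.92, 3.42e-05), Cdk9 (-0.68, 7.97e-06) and Ccnk (-0.56, 9.97e-06) had lower effects in tumors, and these calls were made under all 20 alternative settings. For Cdk12 the difference of -0.26 (edgeR adjusted p = 0.0105) shrank to -0.042 with total counts (edgeR adjusted p = 0.704) and to 0.0096 with log2(TPM + 1). Ccnt2 had a higher effect in tumors, by 0.24 log2 (edgeR adjusted p = 0.0205), and lost the call in 6 of 20 settings, among them those without DMSO library 3 or YJ1206 cell library 1 or 2 (edgeR adjusted p = 0.0530 to 0.0564). The remaining 4 genes were not called, but Cdk13 (0.22) and Cdk7 (0.39) were with total counts, Cdk7 also on both TPM scales (0.39 and 0.40), Ccnt1 without vehicle library 2 (-0.28, edgeR adjusted p = 0.00222) and Ccnh without YJ1206 tumor library 3 (-0.41, edgeR adjusted p = 0.0240). Cells and tumors also differed in how and on what schedule the drug was given, in the RNA the labels name and in the cells present. In the cells alone, treatment also went with the library series. These differences cannot be told apart here.

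Ratios between partner transcripts within a library do not depend on how libraries are scaled. In cells, the ratio of Cdk12 to Cdk13 counts was 1.29, 1.31 and 1.42 with DMSO and 2.01, 1.94 and 1.95 with YJ1206, a change of 1.47-fold. In tumors it was 1.17, 1.34 and 1.15 with vehicle and 1.54, 1.46 and 1.46 with YJ1206, a change of 1.22-fold. The groups did not overlap in either experiment, and the two-sided exact permutation test gave p = 0.1 for each, the smallest value that 3 against 3 libraries allow. The cyclin for both kinases shifted differently: the TPM ratio of Ccnk to the sum of Cdk12 and Cdk13 went from 0.752 ± 0.018 to 0.802 ± 0.025 (SD, n = 3) in cells and from 0.428 ± 0.018 to 0.352 ± 0.010 in tumors, without overlap in either.

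For P-TEFb, the TPM ratio of the inhibitor Hexim1 to Cdk9 was 0.438, 0.400 and 0.441 in DMSO cells and 1.56, 1.55 and 1.56 in YJ1206 cells, so the inhibitor's transcript went from below to above that of the kinase. In tumors it was 0.451, 0.357 and 0.437 against 0.586, 0.449 and 0.495, with overlapping groups and Cdk9 above Hexim1 throughout. The sum of Ccnt1 and Ccnt2 relative to Cdk9 went from 0.749, 0.658 and 0.740 to 0.525, 0.495 and 0.471 in cells, and in tumors from between 1.20 and 1.51 to between 1.26 and 1.39. The first groups were apart and the second overlapped. Between the cyclin T genes, the ratio of Ccnt1 to Ccnt2 overlapped in cells and went from 1.77 ± 0.227 to 1.35 ± 0.065 in tumors without overlap.

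Within the CDK-activating kinase, the TPM ratio of Mnat1 to Cdk7 was 0.524, 0.525 and 0.582 with DMSO and 0.907, 1.10 and 1.15 with YJ1206 in cells. Mnat1 thus went from well below Cdk7 to about the same level. The ratio of Ccnh to Cdk7 went from 0.625 ± 0.063 to 0.873 ± 0.141 without overlap. In tumors both ratios overlapped between groups. Of the 7 TPM ratios described for each experiment, none beyond the Cdk12 to Cdk13 count ratio was tested.

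**Figure D3:**
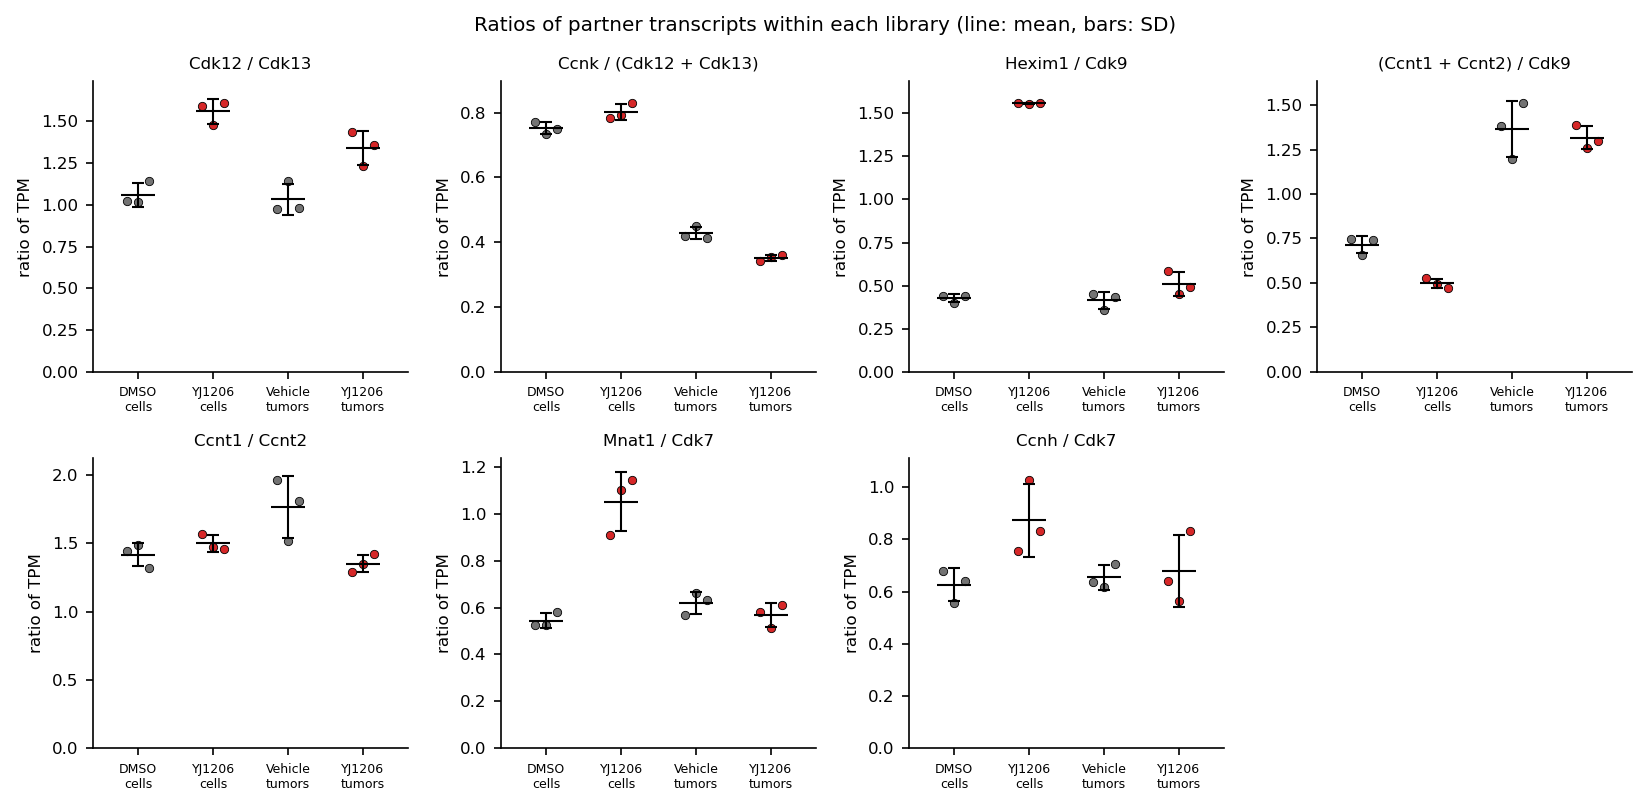
TPM ratios of partner transcripts (vertical axis, 7 panels) in every library of the 4 groups, with a line at the mean and bars of 1 SD over 3 libraries. The panel of Hexim1 over Cdk9 shows the YJ1206 cells at 1.55 to 1.56 and every other library at 0.357 to 0.586, and the panel of Cdk12 over Cdk13 shows treated libraries above controls in both experiments.

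The deposited counts and TPM together carry information on the transcripts assigned to a gene, since the count divided by the TPM is proportional to the mean effective length of its transcripts in that library. Divided by the median over genes with at least 100 counts, this length did not overlap between groups for 5 members in cells (Cdk12, Ccnk, Ccnt1, Mnat1 and Hexim1) and 3 in tumors (Cdk13, Mnat1 and Hexim1). Over all such genes it did not overlap for 63% in cells and 46.1% in tumors. Hexim1 has a single annotated transcript and yet moved by 1.31% in cells, so a second reference, the genes with 1 annotated transcript, was added after the data were seen. With it, 5 members in cells (Ccnk, Ccnt1, Ccnt2, Cdk7 and Hexim1) and 1 in tumors (Mnat1) did not overlap, against 55.7% and 12% of genes, and Hexim1 moved by -0.224% in cells.

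Ccnt1, which has 9 annotated transcripts of 465 to 7397 bases, showed the largest change of length among the members in cells. Relative to single-transcript genes, its effective length was 3.17, 3.07 and 3.16 with DMSO and 2.74, 2.72 and 2.80 with YJ1206, a log2 difference of -0.18 (exact permutation p = 0.1, the smallest possible). The treated libraries were all shorter, and 9.15% of genes changed by more. In tumors the Ccnt1 lengths overlapped, at 2.37, 2.34 and 2.33 against 2.32, 2.36 and 2.24. Ccnt2 fell by 6.19% in cells, from 2.51, 2.49 and 2.42 to 2.28, 2.28 and 2.40, a change that overlapped between groups with the first reference. Which transcripts changed cannot be read from values per gene. Of the 31-base words of Ccnt1 transcripts, 9.76% occur in other genes, mostly in 9330020H09Rik, while its estimated counts were whole (within 0.01) in all 12 libraries. Estimated counts were not whole for Cdk13 in 6 cell and 4 tumor libraries and for Mnat1 in 1 and 6. For the other members the share of words was at most 3.47%, and Cdk12 and Cdk13 share 9 such words.

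**Figure D4:**
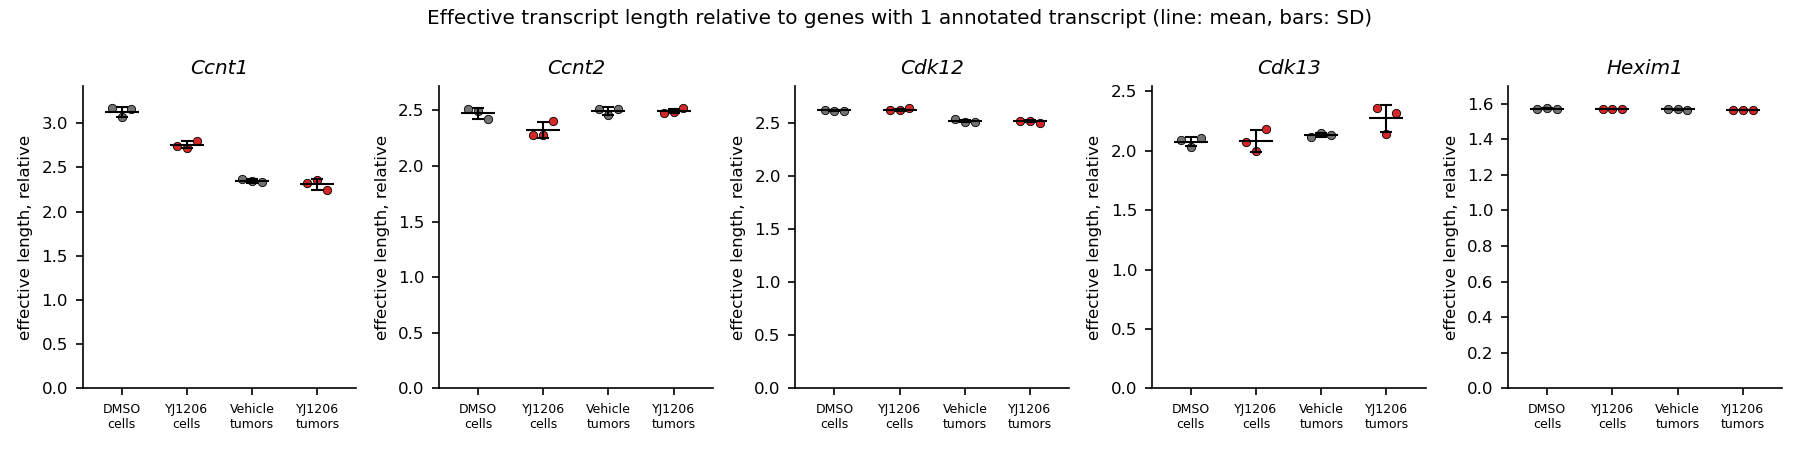
Effective transcript length of 5 members relative to the median of genes with 1 annotated transcript (vertical axis, a ratio) in every library of the 4 groups, with a line at the mean and bars of 1 SD. Ccnt1 falls from 3.07 to 3.17 in DMSO cells to 2.72 to 2.80 in YJ1206 cells, while Hexim1 differs by 0.224% in cells.

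Around these 10 genes, 41 others of the same pathway were listed in 6 groups. In cells 32 of them were called, 22 higher and 10 lower, with a median log2 fold change of 0.13 against -0.017 over all genes. The 32 make up 78.0% of the list, against 76.1% of all genes called, so the count does not set the list apart. On the TPM scales 32 were called as well, but 14 higher and 18 lower, so the split depends on the scaling. In tumors 11 were called, 3 higher and 8 lower, which is 26.8% of the list and 26.8% of all genes, with a median of -0.14. Given as counts only, the partners of HEXIM1 in the 7SK particle all rose in cells (3 of 3, and 2 of 3 on the TPM scales), and in tumors 1 rose and 1 fell. The group labelled kinase substrates in the elongation complex holds polymerase, pausing factor and negative elongation factor subunits. Whether each of them is a substrate was not tested. This group had 5 higher and 2 lower of 7 in cells, with TMM, total counts and TPM alike, and 0 higher and 3 lower in tumors. Core TFIIH, the rest of the factor that holds CDK7, had 5 higher and 1 lower of 7 in cells, 2 higher and 2 lower on the TPM scales, and 1 lower in tumors.

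The P-TEFb recruiters and super elongation complex had 6 higher and 1 lower of 10 in cells, 4 higher and 2 lower on the TPM scales, and 1 lower in tumors. The other transcription-linked kinases and cyclins had 1 higher and 4 lower of 8 in cells, 0 higher and 8 lower on the TPM scales, and 1 higher in tumors. C-terminal domain phosphatases, which remove the marks these kinases set, had 2 higher and 2 lower of 6 in cells, 1 higher and 4 lower on the TPM scales, and 1 higher and 2 lower in tumors. For reference to all 6 groups, 37.8% of all genes were called higher and 38.3% lower in cells with TMM. With log2(TPM + 1), 2534 of the 11826 genes were called higher in cells and 6151 lower. In tumors 11.9% of all genes were called higher and 14.9% lower with TMM. One gene of the super elongation list, Ell3, had 0 to 1 counts in DMSO cells and 9 to 19 in YJ1206 cells, and no fold is given.

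Among the called genes of at least 5 CPM, the largest increase in cells was that of Hexim2, the paralog that can also inhibit P-TEFb, at 2.20 log2 (SE 0.133, edgeR adjusted p = 1.92e-14). It went from 2.72, 3.20 and 3.83 CPM to 14.7, 15.6 and 14.8 CPM, with 53 to 76 counts in the DMSO libraries. The Hexim2 rise was 2.02 with total counts, 1.40 with log2(TPM + 1) and 1.51 with log2(TPM + 0.1), all called. The neighbouring Hexim genes thus both rose, and their transcripts share 0 words of 31 bases. Supt5, the pausing factor subunit that P-TEFb phosphorylates, rose by 1.36 log2 (edgeR adjusted p = 2.32e-24). The largest decreases were those of Nelfe, a subunit of the negative elongation factor (-1.67 log2), Ssu72, a C-terminal domain phosphatase (-1.60), and Ell2, an elongation factor (-0.75), with edgeR adjusted p of 2.26e-15, 5.88e-17 and 1.96e-09.

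In tumors Hexim2 again had the largest increase among called genes of at least 5 CPM, at 0.69 log2 (SE 0.143, edgeR adjusted p = 0.0124), from 4.15, 3.86 and 4.91 CPM to 7.26, 6.53 and 6.96 CPM. It was followed by the phosphatase gene Ctdsp2 (0.47, edgeR adjusted p = 0.00237) and by Ccnl2, a cyclin of the splicing-linked CDK11 kinases (0.27, edgeR adjusted p = 0.0441). Nelfe fell there too (-0.67, edgeR adjusted p = 0.0157), with the phosphatase gene Ctdp1 (-0.57, edgeR adjusted p = 0.0119) and Larp7, which binds and stabilizes 7SK RNA (-0.50, edgeR adjusted p = 0.00771). In cells Larp7 was at 0.40 log2 (edgeR adjusted p = 1.24e-09), at 0.22 with total counts (edgeR adjusted p = 3.45e-05) and at 0.082 with log2(TPM + 1), where it was not called (limma adjusted p = 0.154). Ccnl2 fell in cells, by -0.60 log2 (edgeR adjusted p = 3.08e-10), and was called lower with total counts (-0.78) and log2(TPM + 1) (-0.88) too. Ctdp1 was at 0.13 log2 in cells (edgeR adjusted p = 0.0271) and turned to -0.23 with log2(TPM + 1) (limma adjusted p = 0.0450). On that TPM scale the tumor calls of Hexim2 (0.39, limma adjusted p = 0.253) and Ccnl2 (0.20, limma adjusted p = 0.190) were lost.

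**Figure D5:**
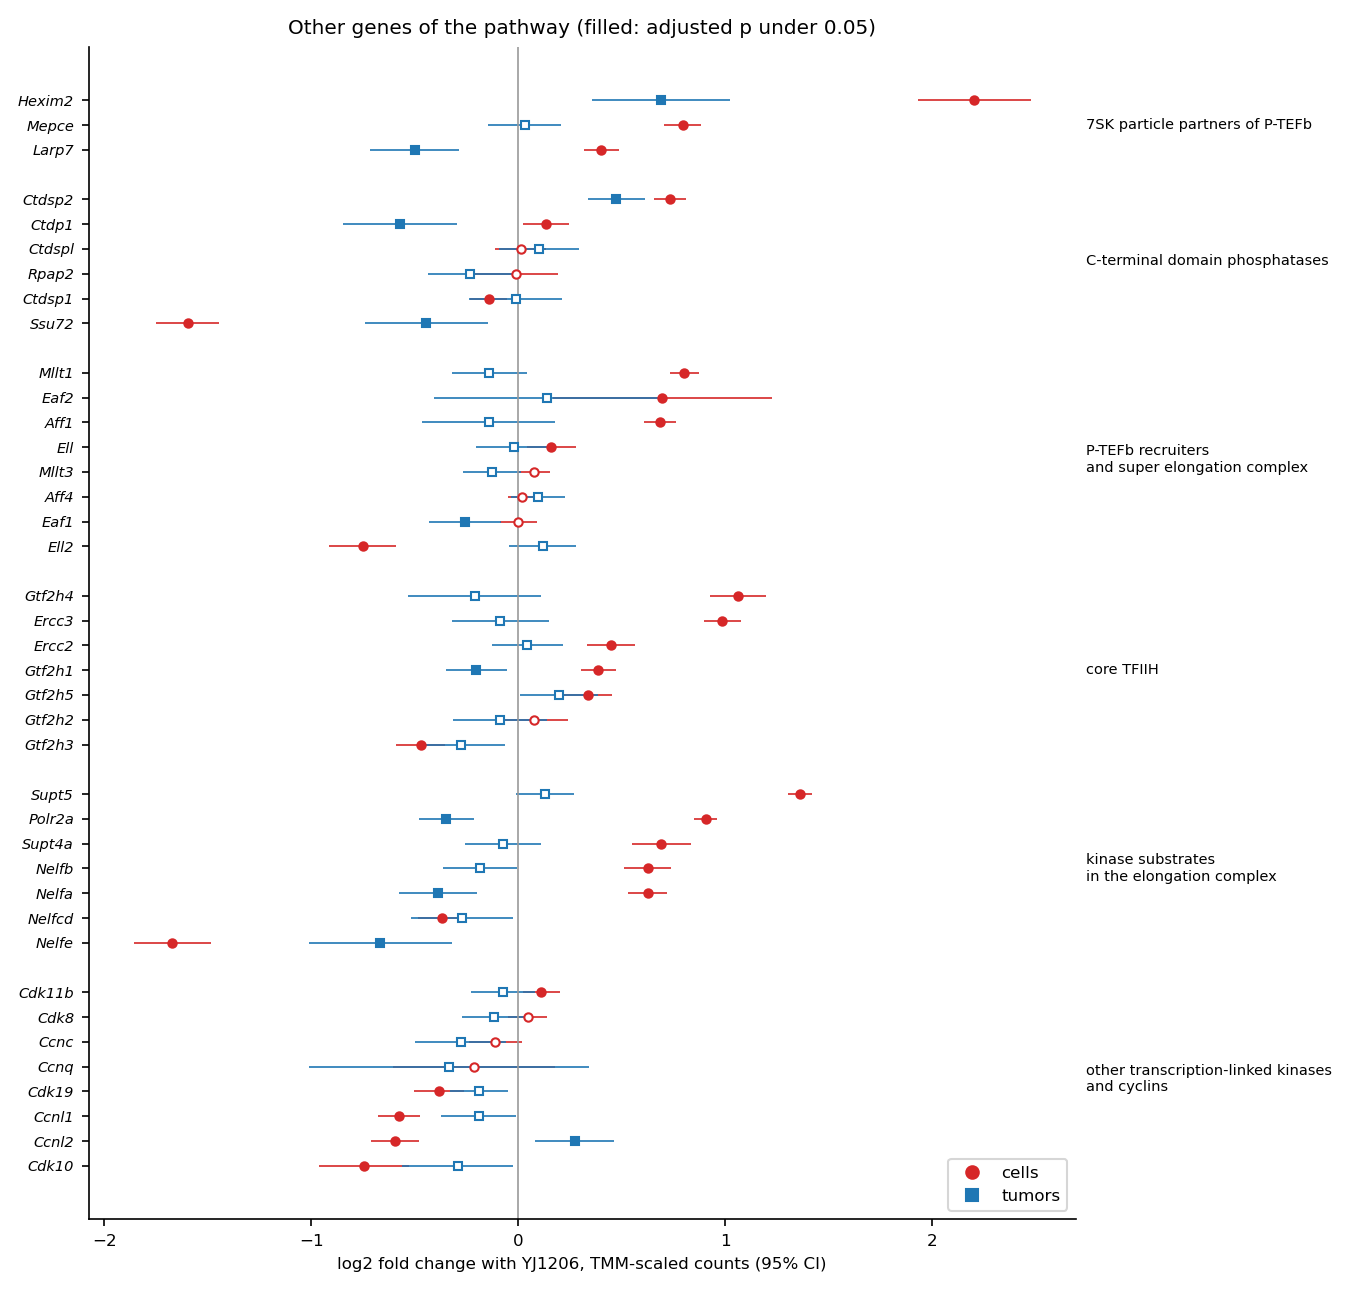
Log2 fold change with YJ1206 (horizontal axis, bars: 95% confidence interval, edgeR on TMM-scaled counts) of listed pathway genes, grouped by role (Ell3 is among those not drawn), in cells and in tumors, filled where the adjusted p was under 0.05. Hexim2 lies farthest right in cells at 2.20 and in tumors at 0.69, and Nelfe lies farthest left in both, at -1.67 and -0.67.

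Genes with the most similar pattern were sought among 9086 genes, by Pearson's r over the 12 libraries after the mean of each experiment was removed. For Hexim1 they were Litaf (r = 0.998), Supt5 (0.997) and Rnf185 (0.995), and for Cdk12 they were Ctdsp2 (0.992), Atp5j2 (0.990) and Kdm5c (0.989). For Cdk13 the best values were lower: Gcc1 (0.859), Rnf146 (0.855) and Resf1 (0.849). Among the members, Hexim1 had its highest r with Cdk9 (0.960), followed by Mnat1 (0.901), Ccnk (0.897) and Cdk12 (0.896). Its lowest r was with Cdk7 (-0.73), and Cdk12 and Cdk13 had an r of 0.441. The points share their treatment groups, 3 libraries each, and their scaling, so r is a description only.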

How the data were processed

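The authors deposited, for each experiment, the estimated counts of each gene, many of them fractional, and TPM values, which they scaled for transcript length and library. The submitters' processing notes name kallisto and the GRCm38/mm10 build. The kallisto version and the annotation are not given in the sources used here. All 12 libraries were grouped by their labels. Estimated counts were rounded to whole numbers, since the test had been chosen for counts, and fitted per experiment in R 4.3.3 by edgeR 4.0.16 (genes kept by filterByExpr, TMM scaling, glmQLFit, glmQLFTest, Benjamini-Hochberg, threshold 0.05). Intervals are edgeR's log2 fold change ± SE times the t quantile of its degrees of freedom. The difference of effects used the 12 libraries and genes in both tables. These steps were also run on simulated data in which only a small part of the genes changed, upward and downward alike. In cells 76.1% of genes were called, so that run cannot show how the scaling and the test perform there. Alternatives were DESeq2 1.42.0, RLE factors, total counts, no filter, limma 3.58.1 on log2(TPM + 1) and log2(TPM + 0.1), a replicate block, libraries 1 and 2 only and leaving out each library.

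The members and gene lists were chosen with earlier results of these data known. All 10 members are named, with the 3 pathway genes rising most and the 3 falling most per experiment among called genes of at least 5 CPM, and 3 genes of similar pattern for Cdk12, Cdk13 and Hexim1. One listed pathway gene that the rule would name is not reported here. Larp7, Ccnl2 and Ctdp1 in cells and Ell3 were named after their values were seen. Of 40077 and 34508 gene identifiers, 39867 and 34326 were found in GENCODE M21, used for coordinates and 31-base words (the default word length of kallisto). Ratios and lengths were computed with Python 3.11.15 and compared with the exact permutation test of scipy 1.17.1. At these depths 3 counts correspond to 0.111 to 0.215 CPM, a limit of counting error only. No pair of libraries was a copy, as within groups the chi-square of a pair was 1.94 to 2.90 per gene for cells and 3.66 to 49.7 for tumors, and each was counted as its own. This does not show that the third tumor libraries are independent of the other two.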

Additional observations from a re-analysis of the deposited data

Results flagged for a closer look

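The effect of YJ1206 differed between tumors and cells for 6 of the 10 genes by the interaction term in edgeR. Of all 15328 genes tested, 46.8% differed, so the count alone does not set the members apart. Each difference below is the log2 effect in tumors minus that in cells. It was -2.19 (SE 0.133) for Hexim1, where all 3 treated cell libraries lay above the controls and the tumor libraries overlapped. It was -0.92 (SE 0.122) for Mnat1, -0.68 (SE 0.076) for Cdk9 and -0.56 (SE 0.064) for Ccnk, each higher in 3 of 3 treated cell libraries and not called in tumors. For Cdk12 it was -0.26 (SE 0.074), a rise called in both experiments, and the difference was -0.042 with total counts (edgeR adjusted p = 0.704) and 0.0096 with log2(TPM + 1). For Ccnt2 it was 0.24 (SE 0.075), with a rise called in tumors and none in cells.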

How the results depend on the processing

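Of 588 recomputed values, 508 kept their direction and their side of the threshold, or for counts and untested values stayed near the reported one. In cells 7 to 9 members were called under every setting. In tumors the count of 2 called members went to 1 with no filter and with either TPM scale and to 0 with libraries 1 and 2 of each group only, where 1 gene of all was called, and it ranged from 0 (without vehicle library 3) to 3 when a library was left out. The count of 11 called pathway genes in tumors went to 0 with libraries 1 and 2 only and ranged from 4 to 13 when a library was left out, with 4 without vehicle library 3 and 7 and 5 without YJ1206 libraries 1 and 3. Calls over all genes moved alike, from 4176 to 1938 without vehicle library 3, to 1877 without YJ1206 library 3 and to 5724 without vehicle library 2. The log2 ratio of Cdk12 to Cdk13 ranged from 0.53 to 0.61 in cells and from 0.25 to 0.38 in tumors. Non-overlapping effective lengths in tumors went from 3 members to 1 with the single-transcript reference, chosen after seeing the data, and ranged from 3 to 5 when a library was left out. Where no cause is named below, the cause was not tested.

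Changes near 0 turned sign. Cdk13 in cells went to -0.16 with total counts and to -0.28 and -0.29 with log2(TPM + 1) and log2(TPM + 0.1), the scalings that lower the median of all genes, and ranged from -0.0041 to 0.039 when a library was left out. On those TPM scales the tumor changes were -0.099 and -0.10 for Cdk13, -0.063 and -0.064 for Cdk7 and -0.031 and -0.032 for Ccnh, which was at -0.092 with libraries 1 and 2 only. With a library left out, Cdk7 ranged from -0.021 to 0.079, Ccnh from -0.070 to 0.11 and Mnat1 from -0.19 to 0.016. The difference of effects for Cdk12 was 0.0096 and 0.0088 on the TPM scales, that for Ccnt1 was 0.047 with total counts, and that for Cdk13 was -0.032 with DESeq2 and with RLE factors and ranged from -0.032 to 0.033 when a library was left out.

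Same-numbered libraries did not deviate together (correlations -0.044 to 0.052), so no pairing by number was seen. Whether samples of the same number were handled together cannot be read from these correlations. With a replicate block the counts of called members were 7 in cells and 2 in tumors, where Hexim1 passed (edgeR adjusted p = 0.0239) and Ccnt2 did not (0.0652), and 9 pathway genes were called in tumors. The depth, 13936984 counts or more, leaves members at 378 counts or more in every library.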
